A study of Mus musculus with 18 samples.

Results

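A set of 8 genes of the extracellular matrix was followed through bone marrow progenitor cells of lupus-prone mice. They were the fibrillar collagen genes Col1a1, Col1a2 and Col3a1, the bone matrix genes Bglap, Ibsp and Sparc, the proteoglycan gene Dcn, and Emilin2, which encodes a glycoprotein of elastic fibres. The 8 genes were taken by symbol from 20639 genes in the LSK and CMP tables, and 7 of the 8 were found in each table. Dcn was not analysed here in CMPs and Bglap was not analysed here in LSK. The 8 had been selected on the F1-L against F1-P differences in expression of these same libraries, in LSK and in CMPs. Their levels in those contrasts are therefore a description. Where fits over all genes called members there, the count is printed beside the share of all genes called, and it supports nothing.

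RNA was sequenced from LSK (Lin-Sca-1+c-Kit+ cells, the stem and progenitor compartment) and from common myeloid progenitors (CMPs), both sorted by flow cytometry from the bone marrow of female mice. NZB/W F1 mice, a hybrid strain that develops lupus with kidney disease, were taken prediseased at 12 weeks (F1-P) or with lupus at 28 to 36 weeks (F1-L). C57BL/6 wild-type mice without disease were taken young at 12 weeks (B6-Y) or old at 28 to 36 weeks (B6-O). Each group held 3 samples, with 4 groups of LSK and the 2 NZB/W F1 groups of CMPs. Age and disease cannot be told apart between F1-P and F1-L, nor strain and disease between F1-L and B6-O. No agent or transgene was given to any group. The labels do not say whether the samples of a group came from separate mice, so p-values measure the spread between these samples, which may in part be technical.

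Type I collagen, the main protein of bone and tendon, is a rope in which chains of the Col1a1 and Col1a2 products are wound together. Mesenchymal cells such as osteoblasts, fibroblasts and the reticular stroma of the marrow are its usual makers, while blood progenitors are not known for it. Osteocalcin (Bglap) and bone sialoprotein (Ibsp) mark bone-forming osteoblasts, Sparc binds collagen and calcium, and decorin (Dcn) coats collagen fibrils. Emilin2 is different in kind, since cells of the myeloid lineage express it as well as connective tissue.

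The collagen members share a long repeat. Glycine recurs in the triple helix as Gly-X-Y, so that codons of the form GGN recur in the gene. The longest unbroken run of such codons in the reference transcripts (GRCm38, GENCODE annotation) held 338 repeats in Col1a1, or 69.74% of its 1454 codons, 339 repeats in Col1a2 and 344 repeats in Col3a1. The first 10 repeats of each run are shown from the start of its own run, with the glycine codons in capitals.
Col1a1: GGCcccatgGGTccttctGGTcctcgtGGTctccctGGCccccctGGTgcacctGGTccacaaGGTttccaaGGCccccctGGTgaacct
Col1a2: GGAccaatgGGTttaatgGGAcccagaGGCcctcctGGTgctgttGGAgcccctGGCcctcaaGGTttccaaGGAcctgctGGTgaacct
Col3a1: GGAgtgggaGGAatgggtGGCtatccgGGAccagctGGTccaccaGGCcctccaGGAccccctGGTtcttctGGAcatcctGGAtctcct
Col1a1 and Col1a2 share some of the other codons here, such as ttccaa and gaacct, and differ in others. Each run is printed from its own start, so the repeats of Col3a1 need not line up with those of Col1a1 and Col1a2. Of all windows of 75 bases, the read length of these libraries, none in the Col1a1 or Col1a2 transcript occurred in the transcripts of another gene, and 1.22% in Col3a1 did, all in the overlapping gene Gm47302. Reads of these collagen transcripts could thus be told apart by sequence. The search covered 1 transcript per gene, on its own strand. For Col1a2 that transcript has 5348 bases, while the union of all its exons has 12426, and the remaining exon bases were not searched.

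Osteocalcin could not be told apart in the same way. Bglap lies beside its copies Bglap2 and Bglap3, and the 3 coding sequences have 288 bases each. The first 60 coding bases are shown, with the bases that differ from Bglap in capitals.
Bglap: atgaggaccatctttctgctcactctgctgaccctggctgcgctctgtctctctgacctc
Bglap2: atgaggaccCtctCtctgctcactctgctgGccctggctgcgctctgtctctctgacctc
Bglap3: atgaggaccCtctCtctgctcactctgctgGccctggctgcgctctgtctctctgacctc
In these 60 bases Bglap2 and Bglap3 each differed from Bglap at 3 bases. Over the whole coding sequence the identity to Bglap was 98.61% for Bglap2 and 95.49% for Bglap3. Of 366 windows of 75 bases in the Bglap transcript, 242 (66.12%) also occurred in Bglap2 or Bglap3, so the Bglap counts are uncertain.

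RefSeq promoter sequences of GRCm38.p6, from 250 bases before to 50 bases after the start, were at hand for 6 of the 8 members, as 7 promoters. They were searched on both strands for a TATA box, spelled TATAAA. It was found in 3 of the 7, with its first base at -27 in Bglap, -28 in Ibsp and -117 in Col3a1, against 13.6% of 32851 promoters of the same length. The core letters bound by RUNX factors, ACCACA, were searched in the same way and found in 2 of the 7, at -132 in Bglap and at 35 in Sparc, against 16.8% of those promoters. The 2 bone matrix promoters are shown because their TATA boxes stand at nearly the same place, with the motifs in capitals. The Bglap promoter is chr3:88384417-88384716 on the minus strand and the Ibsp promoter chr5:104299037-104299336 on the plus strand.
Bglap promoter: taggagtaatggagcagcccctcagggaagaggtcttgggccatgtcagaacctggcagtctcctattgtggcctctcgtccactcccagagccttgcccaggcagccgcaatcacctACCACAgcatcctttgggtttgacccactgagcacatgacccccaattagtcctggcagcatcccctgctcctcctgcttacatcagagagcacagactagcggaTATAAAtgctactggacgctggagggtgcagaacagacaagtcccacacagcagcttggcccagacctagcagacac
Ibsp promoter: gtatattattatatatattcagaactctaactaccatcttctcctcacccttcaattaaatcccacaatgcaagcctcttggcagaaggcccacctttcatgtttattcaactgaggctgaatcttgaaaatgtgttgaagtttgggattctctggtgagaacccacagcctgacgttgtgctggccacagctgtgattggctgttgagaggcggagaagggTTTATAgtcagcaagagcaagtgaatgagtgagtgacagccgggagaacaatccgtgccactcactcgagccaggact
A match of letters is a description of the sequence and not a site of binding.

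Library depth ran from 23772252 to 28493747 reads in LSK and from 20001328 to 24761060 reads in CMPs. The deposited values were CPM, reads of a gene scaled to the size of its library, in which 1 read was worth 0.0310 to 0.0584 CPM in LSK and 0.0392 to 0.0516 CPM in CMPs. Every value was a whole number of reads, so reads are given beside CPM. Intervals on read ratios cover counting error alone. Genes of the sort gates (Kit, Ly6a, Cd34 and others) were present in all libraries, at a summed 1905 to 2624 CPM in LSK and 900 to 1955 CPM in CMPs. Plasma cell markers summed to between 11864 and 46027 CPM in the LSK of NZB/W F1 mice and to between 385 and 2984 CPM in those of C57BL/6 mice. Several libraries stood apart from the others of their group on marker lists. F1-P replicate 1 of the CMPs held 330 summed CPM of neutrophil markers against 6670 and 8726 in replicates 2 and 3, and F1-P replicate 3 of the LSK was the highest LSK library for 5 of the 7 members and 6 of 19 reticular stroma markers. F1-P replicate 3 of the CMPs held 13.3 summed CPM of cartilage markers against 0.864 and 1.94. In LSK, B6-Y replicate 2 held 6028 summed CPM of neutrophil markers against 623 and 616, and B6-O replicate 3 held 11426 against 1983 and 998. In sorted bulk samples, fewer cells of a type and less RNA per cell cannot be told apart.

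In CMPs, Col1a1 was nearly lost from the F1-L libraries while Col1a2 was not. Col1a1 (ENSMUSG00000001506.10, chr11:94936224-94953042, plus strand) had 138, 196 and 216 reads in the F1-P samples and 2, 1 and 2 reads in the F1-L samples. The groups were far apart, with every F1-L library at or under the level of 3 reads. Mean CPM was 7.91 ± 1.12 (SD, n = 3) in F1-P and 0.0807 ± 0.0255 (SD, n = 3) in F1-L, and the read ratio at equal depth was 98.0 (95% interval 41.7 to 303). Leaving out each library in turn moved the ratio between 83.9 and 110. Col1a2 (ENSMUSG00000029661.16, chr6:4504814-4541544, plus strand), which the gene Gm43921 overlaps, kept most of its reads. Col1a2 had 177, 276 and 336 reads in F1-P and 183, 109 and 123 reads in F1-L, or 11.3 ± 2.46 against 6.69 ± 1.43 CPM (SD, n = 3). In CPM the 2 groups of Col1a2 just failed to overlap, and the ratio of F1-P to F1-L was 1.69 (1.5015 to 1.91).

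The partner chains can be set against each other within a library, which cancels depth. In the F1-P CMPs, Col1a1 held 43.8%, 41.5% and 39.1% of the reads of both genes. In the F1-L CMPs it held 1.08%, 0.909% and 1.60%. The highest exact binomial bound in F1-L was 5.66% and the lowest in F1-P was 35.0%, so the 2 groups were separated well beyond counting error. Per kilobase of the longest coding transcript, Col1a1 stood at 0.580 to 0.703 of the Col1a2 level in F1-P and at 0.00827 to 0.0147 of it in F1-L. With the union of all exons as the length, the values were 1.22 to 1.48 and 0.0174 to 0.0308. The order of the 2 chains in F1-P thus turned on the length used, while the gap between the groups did not. In LSK the Col1a1 share lay in between in all 12 libraries, from 4.16% to 38.4%.

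**Figure D1:**
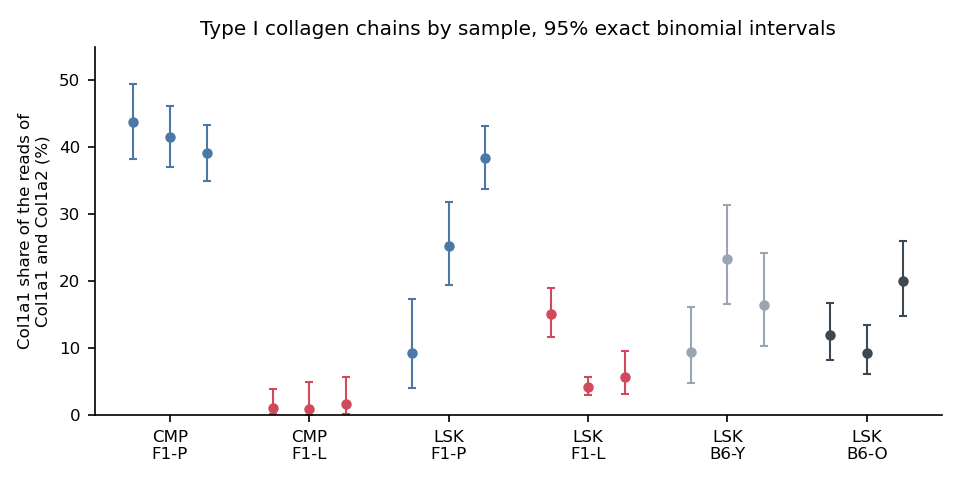
The share of the reads of Col1a1 and Col1a2 that fell on Col1a1 (vertical axis, %) in each sample, with exact 95% binomial intervals, for both CMP groups and the 4 LSK groups. The F1-P CMPs sit between 39.1% and 43.8%, the F1-L CMPs between 0.909% and 1.60%, and the LSK libraries between 4.16% and 38.4%.

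Col3a1 (chr1:45311538-45349706, plus strand), the chain of type III collagen, was scarce in CMPs. It had 1, 4 and 7 reads in F1-P and 0, 0 and 1 in F1-L, and the groups overlapped. Its ratio of 10.7 had an interval from 1.58 to 457. The F1-P library with 138 reads of Col1a1 thus held 1 read of Col3a1.

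Sparc and the bone matrix genes were also lower in the F1-L CMPs, but less evenly. Sparc (chr11:55394500-55423183, minus strand) had 35, 33 and 169 reads in F1-P and 10, 3 and 4 in F1-L, without overlap. Its ratio of F1-P to F1-L was 12.4 (7.59 to 21.7), and it was 5.65 without F1-P replicate 3, which alone held most of its reads. Bglap (chr3:88383501-88384464, minus strand) had 5, 12 and 8 reads in F1-P and 2, 1 and 2 in F1-L, a ratio of 4.45 (1.67 to 14.9). The Bglap groups did not overlap, though all 6 libraries held few reads. Ibsp (chr5:104299171-104311469, plus strand) had 2, 5 and 33 reads in F1-P and 2, 0 and 2 in F1-L. The Ibsp groups overlapped, and its ratio of 8.91 (3.22 to 34.3) dropped to 2.47 without F1-P replicate 3.

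Emilin2 (ENSMUSG00000024053.11, chr17:71252172-71311978, minus strand) stood apart from the rest in CMPs by its high level. It had 2051, 2148 and 2191 reads in F1-P and 2283, 2368 and 2029 in F1-L, or 93.0 ± 6.52 and 109 ± 11.5 CPM (SD, n = 3). The ratio of F1-L to F1-P was 1.17 (1.13 to 1.22), and in CPM the groups only just failed to overlap. The highest F1-P library had 98.5 CPM (94.3 to 102.9) and the lowest F1-L library 101.0 CPM (96.6 to 105.5), a gap inside counting error. The antisense gene Gm26561 overlaps Emilin2, and the library kit does not mark strand, so reads of the 2 genes cannot be told apart where they overlap.

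**Figure D2:**
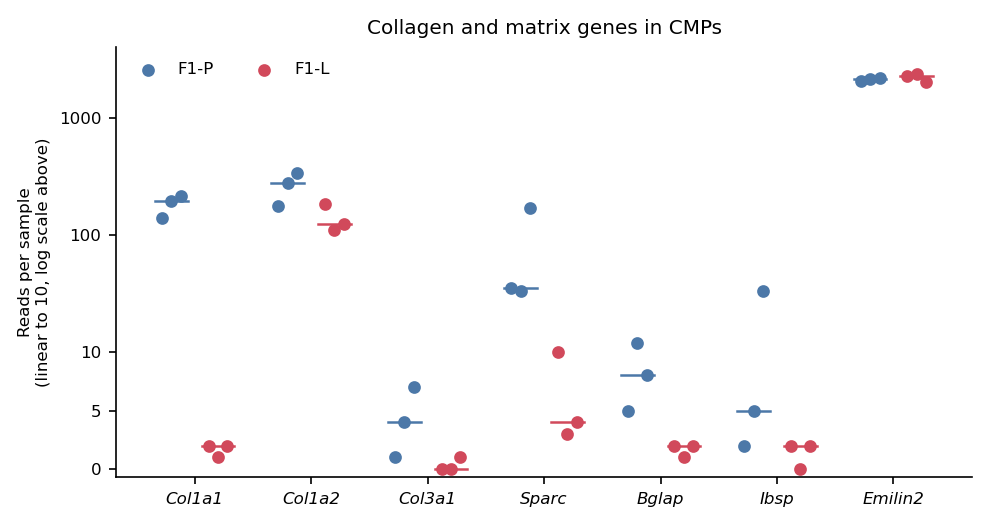
Reads per sample (vertical axis, linear to 10 and logarithmic above) of 7 matrix genes in F1-P and F1-L CMPs, with 3 points per group and a bar at the median. Col1a1 falls from 138 to 216 reads in F1-P to 1 or 2 in F1-L, while Col1a2 holds 109 reads or more in every library and Emilin2 more than 2000.

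Of the 7 members in CMPs, 4 were lower in all F1-L libraries than in any F1-P library (Col1a1, Col1a2, Sparc and Bglap), where 8.79% of all genes with 10 reads were, and 1 was higher (Emilin2), where 8.21% were. In the fits over all genes, where a gene passed with a fold change beyond 1.5 and an adjusted p no higher than 0.05, limma called 1 of 4 members (0.00774% of genes) and the edgeR likelihood ratio test of the study 2 of 4 (2.46%). Picking the members on this contrast decided these counts, so nothing is read from them.

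The markers of other cells also moved between the CMP groups. Neutrophil markers summed to between 330 and 8726 CPM in F1-P and to between 73.7 and 459 in F1-L, with 12 of 13 lower by the likelihood ratio test on genes with 10 reads, by which 3.66% of all genes were lower. Across the F1-P libraries the neutrophil sum ran 330, 6670 and 8726 CPM while Col1a1 ran 138, 196 and 216 reads. Col1a1 was thus lowest of the F1-P libraries in replicate 1, which had the lowest neutrophil sum, and still above every F1-L library there. The part of neutrophils in the Col1a1 level was not tested. Osteoblast lineage markers, a list that holds Col1a1, Col1a2, Bglap and Ibsp themselves, summed to 76.8 to 199 CPM in F1-P and 41.8 to 87.5 in F1-L, and 1 of 14 was lower by that test, namely Col1a1. The osteoblast factor Runx2, which immature blood cells also express, had 1144, 1975 and 4020 reads in F1-P and 1525, 610 and 1362 in F1-L, which overlapped. Markers of the CXCL12-abundant reticular stroma summed to 135, 250 and 374 CPM in F1-P and 233, 117 and 278 in F1-L, and 2 of 16 were lower. These were Cxcl12, the niche chemokine, at 22, 55 and 133 against 5, 0 and 12 reads, and Vcam1, an adhesion molecule, at 40, 489 and 826 against 36, 29 and 75 reads. Vcam1 stands in the macrophage list as well. Macrophage markers summed to 259 to 437 CPM in F1-P and 259 to 289 in F1-L, and 1 of 14 was lower by the same test. By limma 10 of 11 macrophage markers had a negative log2 difference, and 0 passed. Lepr, which defines these stromal cells, had 6, 16 and 17 reads in F1-P and 2, 2 and 5 in F1-L. Cxcl12, Vcam1 and Lepr were thus lowest of the F1-P libraries in replicate 1.

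Fibroblast markers summed to 155 to 182 CPM in F1-P and 107 to 193 in F1-L, with 2 of 14 lower by the same test (3.66% of all genes), Col1a1 and the actin-severing gene Gsn. Cartilage markers summed to 0.864, 1.94 and 13.3 CPM in F1-P and 0.310 to 0.682 in F1-L. The high F1-P value came from replicate 3, with 208 reads of the cartilage collagen Col2a1 against 3 and 5 in the other two. That is the library with most of the Sparc and Ibsp reads. Whether such cells account for the collagen values was not tested. Genes named here from the marker lists, other than those that lead a list by level, were chosen after their values were seen.

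The wider collagen family was counted in CMPs as well. It holds the members Col1a1, Col1a2 and Col3a1, which were picked on this contrast, so the count and the median are a description. Of 32 collagen chain genes with 10 reads, 7 were lower in F1-L by the edgeR likelihood ratio test with Benjamini-Hochberg adjustment and none was higher, against 3.66% lower and 0.37% higher among all 18396 genes. By limma 1 of the 13 chains tested passed, Col1a1. The median log2 difference of the 32 was -1.21, against 0.01 for all genes. The 7 were Col1a1 and, chosen after their values were seen, Col5a2, Col6a4, Col6a5, Col11a1, Col22a1 and Col27a1. Col11a1 had 6, 20 and 47 reads in F1-P and 1 in each F1-L library. Col22a1 had 4, 14 and 6 reads against none in F1-L. Col27a1 had 31, 81 and 137 against 17, 14 and 21. Col11a1, Col22a1 and Col1a1 kept their calls whichever library was left out. The count of chains lower was 14 without F1-P replicate 1, which has the fewest neutrophil reads of its group, and 4 without F1-P replicate 3, while all genes lower went from 673 to 2017 and 273. Without F1-L replicate 1 it was 3. The chains with the most reads were not among those 7. Col5a1 had 2915, 1909 and 1200 reads in F1-P and 1655, 3246 and 1781 in F1-L, and Col11a2 had 198, 348 and 506 against 377, 221 and 285, both with overlap.

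**Figure D3:**
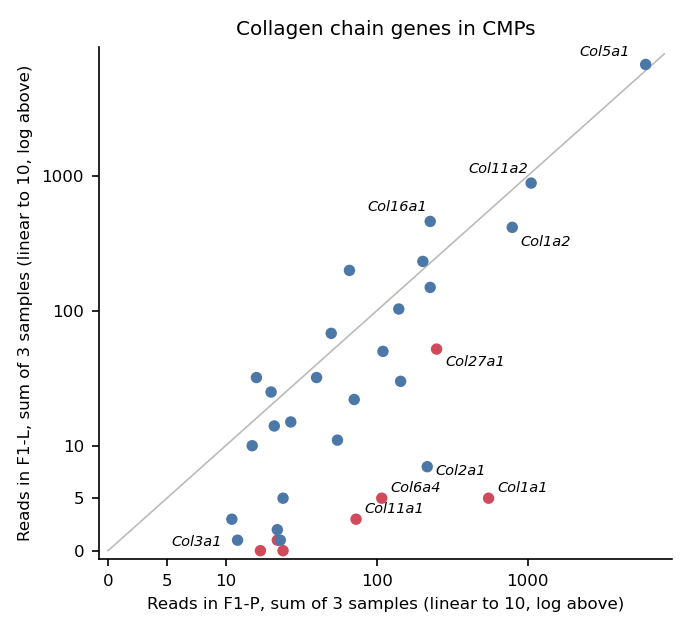
Each of 32 collagen chain genes in CMPs by its reads summed over 3 F1-P samples (horizontal axis) and 3 F1-L samples (vertical axis), both axes linear to 10 and logarithmic above, with the line of equal reads. Red points are the 7 chains lower in F1-L by the likelihood ratio test on genes with 10 reads, and Col5a1, with the most reads, lies near the line.

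The other matrix lists were counted in CMPs by the same test, by which 3.66% of all genes were lower and 0.37% higher. Of 28 genes for collagen synthesis and cross-linking, 1 was lower and none higher by the likelihood ratio test, and that one was Sparc, which is in this list as well. The chaperone and hydroxylase subunit P4hb had 10391, 13276 and 16115 reads in F1-P and 12476, 10168 and 12951 in F1-L. None of 12 collagen receptor genes passed that test (9.8% of all genes had an unadjusted limma p under 0.05, and 1 of the 10 receptors tested did). Of 16 metalloproteinases and inhibitors, 4 were lower, among them the neutrophil collagenase Mmp8 and the gelatinase Mmp9, which also stand in the neutrophil list. Of 32 matrix glycoproteins 2 were lower, the fibronectin gene Fn1 and the thrombospondin gene Thbs1. Of 8 small leucine-rich proteoglycans 1 was higher, biglycan (Bgn), a close relative of Dcn, with 14, 25 and 32 reads in F1-P and 133, 40 and 77 in F1-L.

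The genes most like Col1a1 over the 6 CMP samples, by Pearson correlation of log2(CPM + 1) among 12987 genes, were Cacul1 (r = 0.993), 9330162G02Rik (0.991), Tra2a (0.987), Tmem88 (0.985) and 9930021J03Rik (0.985). None of these is a matrix gene. With 2 groups this far apart, a high r says only that a gene differed between the groups with little spread, as Cacul1 did at 82.2, 84.1 and 82.5 CPM in F1-P and 70.0, 68.0 and 70.3 in F1-L.

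In LSK, Col1a1 was present in every library. It had 8, 51 and 163 reads in F1-P, 58, 37 and 13 in F1-L, 11, 32 and 20 in B6-Y and 29, 25 and 42 in B6-O. All 4 groups overlapped, and mean CPM ran from 0.703 ± 0.370 in B6-Y over 1.03 ± 0.327 in B6-O and 1.46 ± 0.870 in F1-L to 3.74 ± 3.85 in F1-P (SD, n = 3). No neighbours in that order differed beyond their spread. The ratio of F1-L to F1-P was 0.417, but 1.05 without F1-P replicate 3, so that one library set the direction.

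Col1a2 had the highest mean CPM of the 3 collagen members in each LSK group. It had 79, 151 and 261 reads in F1-P, 328, 852 and 215 in F1-L, 106, 105 and 102 in B6-Y and 213, 243 and 168 in B6-O. The level was 3.45 ± 0.141 CPM in B6-Y, 6.64 ± 1.03 in B6-O, 8.25 ± 4.74 in F1-P and 18.9 ± 13.1 in F1-L (SD, n = 3). F1-L and F1-P overlapped, with a ratio of 2.43 (2.19 to 2.70) that was 1.45 without F1-L replicate 2.

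Col3a1 stayed between 2 and 23 reads in all 12 LSK libraries, Ibsp between 1 and 25 and Dcn between 1 and 11, and the groups overlapped in every contrast. With all libraries, the intervals of their ratios included 1 in F1-L against F1-P and in B6-O against B6-Y. These ratios hung on single libraries. The ratio of F1-L to F1-P was 1.38 for Dcn and 4.003 (1.195 to 21.0) without F1-P replicate 3. For Ibsp it was 0.910, and it was 2.16 (1.01 to 5.12) without F1-P replicate 3. With F1-P replicate 1 left out it was 0.572 (0.341 to 0.962), and with F1-L replicate 1 left out 0.490 (0.230 to 0.978). From B6-Y to B6-O the ratio of Ibsp was 1.43 and ran from 0.407 without B6-O replicate 3 to 2.90 without B6-Y replicate 2. That of Dcn was 1.32 and ran from 0.648 to 2.45 without the same libraries, and that of Col3a1 was 0.776, but 0.527 (0.319 to 0.867) without B6-Y replicate 1 and 1.24 without B6-Y replicate 3. No direction is read from these 3 genes. For Ibsp the ratio of F1-P to B6-Y was 2.24 (1.25 to 4.08), and it ran from 0.942 to 4.52 as libraries were left out. Sparc had 43, 52 and 111 reads in F1-P, 44, 43 and 27 in F1-L, 20, 103 and 48 in B6-Y and 25, 32 and 26 in B6-O. In CPM Sparc was lower in all F1-L than in all F1-P libraries, at 1.56 ± 0.303 against 3.40 ± 1.84 (SD, n = 3), a ratio of 0.474 that stayed between 0.364 and 0.686 as libraries were left out. The groups only just failed to overlap, at 1.7623 CPM (44 reads) in the highest F1-L library and 1.7725 CPM (43 reads) in the lowest F1-P library, a gap inside counting error. In CMPs the Sparc levels were 0.270 ± 0.162 in F1-L and 3.25 ± 2.92 CPM in F1-P. The 2 tables were normalised apart, so no test was run between them.

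Emilin2 in LSK was at its highest in the F1-L mice. Its CPM was 14.2, 16.5 and 23.0 in F1-P, 68.4, 65.6 and 63.5 in F1-L, 22.6, 31.8 and 19.4 in B6-Y and 34.6, 37.2 and 42.2 in B6-O. The F1-L libraries were above all 9 others, and the B6-O libraries above all of B6-Y and F1-P. In reads these were 345, 282 and 473 in F1-P, 1708, 1650 and 1414 in F1-L, 730, 942 and 565 in B6-Y and 1111, 1178 and 1261 in B6-O. The ratio of F1-L to F1-P was 3.71 (3.48 to 3.97) and stayed between 3.29 and 4.35 as libraries were left out. In the CMPs of the same strain the ratio was 1.17.

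**Figure D4:**
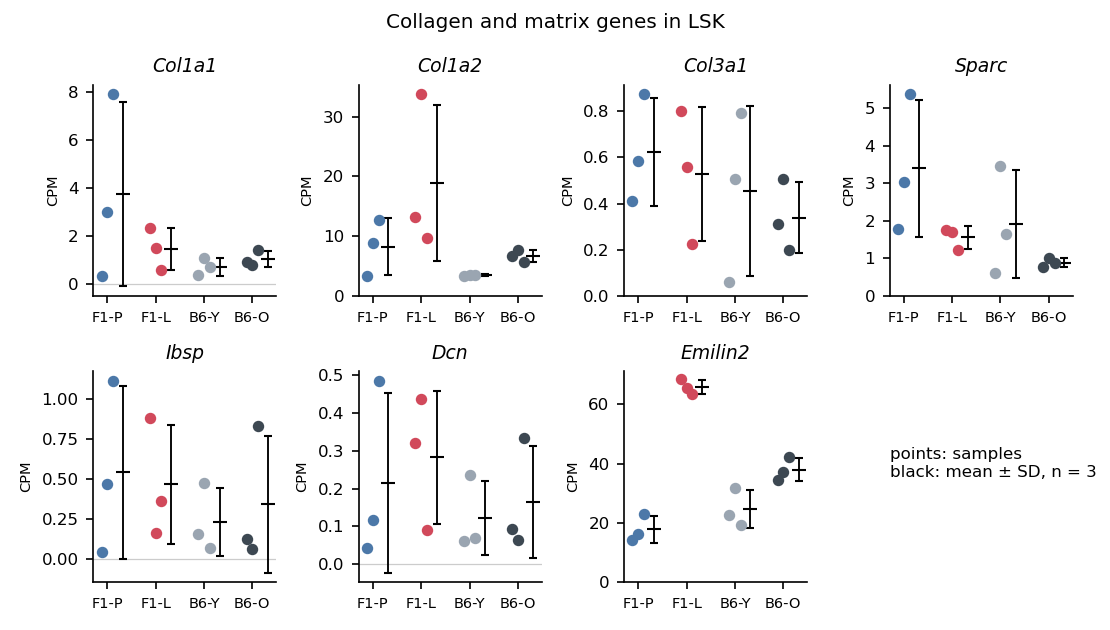
CPM of 7 matrix genes in LSK (vertical axis, linear, one panel per gene), with 3 points per group and the mean ± SD in black. Emilin2 is highest in F1-L, at 63.5 to 68.4 CPM, while the collagen genes overlap between F1-P and F1-L.

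Of the 7 members in LSK, 1 was higher (Emilin2) and 1 lower (Sparc) in F1-L without overlap, where 9.76% and 7.35% of genes with 10 reads were. In the fits over all genes, limma called 1 of 4 members (0.0279% of genes), DESeq2 1 (5.16%) and the edgeR quasi-likelihood test 0 (0.0209%). These counts too were decided by picking the members on this contrast, and nothing is read from them.

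The members were taken as picked on the NZB/W F1 contrasts, so the step from young to old was tested in C57BL/6. The members were chosen with earlier results of these data known, so the C57BL/6 libraries may have had a part in that choice. Emilin2 was higher in all B6-O than in all B6-Y libraries, at 38.0 ± 3.85 against 24.6 ± 6.42 CPM (SD, n = 3), a limma log2 difference of 0.63 (SE 0.21). It did not pass (limma adjusted p = 0.556, unadjusted p = 0.0180). Col1a2 was also higher in all B6-O libraries, by a log2 difference of 0.77 (SE 0.19), and did not pass (limma adjusted p = 0.353, unadjusted p = 0.00463). Its adjusted p was 0.0544 by DESeq2. The read ratio of Emilin2 was 1.54 (1.46 to 1.62), or 1.79 without B6-Y replicate 2 and 1.46 without B6-O replicate 3, the libraries high in neutrophil markers. Sparc had a log2 difference of -0.51 (SE 0.36) with overlap (limma adjusted p = 0.841), and its ratio of 0.471 was 0.799 without B6-Y replicate 2. None of the 3 members tested passed in limma, the edgeR tests or DESeq2, where 0% of genes passed in limma, 0% in the quasi-likelihood test, 0.821% in the likelihood ratio test and 1.39% in DESeq2. At an unadjusted limma p under 0.05 there were 2 of the 3, against 6.62% of all genes, and 2 of 7 members were higher without overlap, against 5.85% of genes with 10 reads. With so few members, these shares cannot be set firmly against the background.

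The steps of the 2 strains were compared by the interaction term of a limma fit over all 12 LSK samples. For Emilin2 the NZB/W F1 step exceeded the C57BL/6 step by 1.22 on the log2 scale (SE 0.28). None of the 15084 genes passed the correction in this limma fit (0%), and 3.92% had an unadjusted p under 0.05. For Col1a1, Col1a2 and Sparc the term was -0.89 (SE 0.76), 0.29 (SE 0.63) and -0.20 (SE 0.50). As one arm of the term is the contrast on which the members were picked, these values are a description.

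The NZB/W F1 groups were also compared with the C57BL/6 mice of the same age. These comparisons share the NZB/W F1 libraries on which the members were picked, so the calls and counts of members in them are a description. Emilin2 was higher in F1-L than in B6-O by 0.78 on the log2 scale (SE 0.13, limma adjusted p = 0.00883), with all 3 libraries of F1-L above all of B6-O. It was past the thresholds in every tool run, and it was the only one of 4 members tested that passed in limma, where 11.6% of genes did. Between F1-P and B6-Y it had a log2 difference of -0.44 (SE 0.24) with overlap, and did not pass (limma adjusted p = 0.263).

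Col1a2 was higher in F1-L than in B6-O without overlap, by 1.195 on the log2 scale (SE 0.43). This passed in DESeq2 (adjusted p = 0.0101, 16.3% of genes called) and in the edgeR likelihood ratio test (adjusted p = 0.0227, 14.6% of genes called) but not in limma (adjusted p = 0.122), and the ratio of 2.89 was 1.73 without F1-L replicate 2. Between F1-P and B6-Y the Col1a2 groups overlapped, with a log2 difference of 0.90 (SE 0.39, limma adjusted p = 0.162, DESeq2 adjusted p = 0.0225). Col1a1 differed from B6-Y in F1-P by 1.11 (SE 0.60), and passed in DESeq2 (adjusted p = 0.0185) but not in limma (adjusted p = 0.259). Its ratio of 5.17 (3.89 to 6.95) was 2.06 without F1-P replicate 3 and 8.19 without F1-P replicate 1. No member passed in limma between F1-P and B6-Y, where 16.2% of genes did, and 2 of 4 passed in DESeq2, where 19.7% did. With so few members, the share of 2 in 4 cannot be set firmly against that background. Sparc was higher in all F1-L than in all B6-O libraries by 0.44 (SE 0.17) and did not pass (limma adjusted p = 0.147). Emilin2, Col1a2 and Sparc were thus 3 of 7 members higher in F1-L without overlap, against 17.3% of genes with 10 reads. As the members were picked on these F1-L libraries, nothing is read from that count.

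The LSK library with the highest Col1a1 level, F1-P replicate 3, was also the highest of the 12 for Col3a1, Sparc, Ibsp and Dcn. It was the highest library for 6 of 19 reticular stroma markers and 7 of 18 fibroblast markers, a list that shares Col1a1, Col1a2, Col3a1 and Dcn, against 5.31% of 19765 genes. The same library was the highest for 4 of 16 endothelial markers, 3 of 14 osteoblast lineage markers and 7 of 35 collagen chain genes. The osteoblast and collagen chain lists hold members too. It was the highest for 0 of 14 neutrophil, 0 of 14 macrophage and 0 of 13 megakaryocyte markers. In F1-P, the reads of Cxcl12 ran 60, 371 and 612, those of the stromal binding protein Igfbp5 16, 89 and 263, and those of Lepr 6, 25 and 59, beside 8, 51 and 163 of Col1a1. These 3 markers were chosen after their values were seen, and they ranked the F1-P libraries as Col1a1 did. The sum over all 19 markers did not, at 291, 187 and 272 CPM, highest in the library with 8 reads of Col1a1. The part of stromal cells in the LSK Col1a1 level was not tested. In the F1-P CMPs, replicate 1 was the lowest of its group for Col1a1, Cxcl12 and Lepr, at 138, 22 and 6 reads. Igfbp5 had 3 reads there. The part of stromal cells in the CMP Col1a1 level was not tested either.

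Emilin2 can be read beside the myeloid markers. Neutrophil markers summed to 342, 578 and 1362 CPM in F1-P, 12835, 5138 and 2094 in F1-L, 623, 6028 and 616 in B6-Y and 1983, 998 and 11426 in B6-O. Of 14 such genes 13 were higher in F1-L than F1-P by the likelihood ratio test, against 3.09% of all genes, and 9 of 14 macrophage and 7 of 13 megakaryocyte markers were higher too. Within F1-P, F1-L and B6-Y, Emilin2 ranked the 3 libraries as the neutrophil sum did, and in B6-O the same library was highest in both. The F1-L order lay inside counting error, with 95% intervals of 65.2 to 71.7, 62.5 to 68.8 and 60.2 to 66.9 CPM. In B6-Y the sums of 623 and 616 were nearly equal. F1-L libraries with sums of 2094, 5138 and 12835 CPM held 63.5, 65.6 and 68.4 CPM of Emilin2, and F1-P libraries with 342, 578 and 1362 held 14.2, 16.5 and 23.0. The B6-Y library with 6028 held 31.8, and the B6-O library with 11426 held 42.2. In the F1-P CMPs the order was the opposite, and Emilin2 was 98.5, 94.8 and 85.8 CPM at neutrophil sums of 330, 6670 and 8726. The sort gates of the study left out cells that carry CD11b, Gr-1 or CD16/32, surface proteins of neutrophils and macrophages. The part of such cells in the Emilin2 level was not tested.

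**Figure D5:**
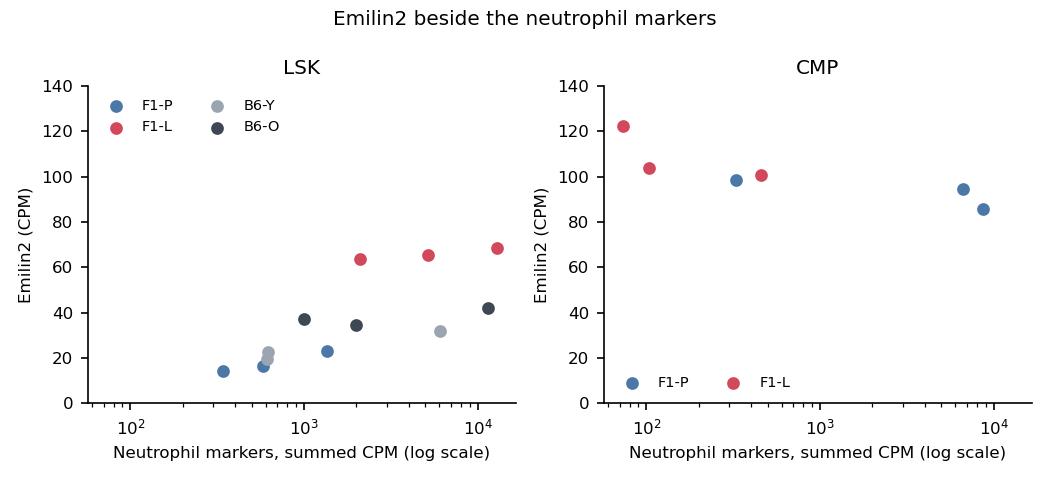
Emilin2 (vertical axis, CPM) against the summed CPM of neutrophil markers (horizontal axis, logarithmic) in 12 LSK samples at left and 6 CMP samples at right, one point per sample. F1-L LSK lie at 63.5 to 68.4 CPM over sums of 2094 to 12835, and CMPs at 85.8 to 122 CPM over sums of 73.7 to 8726.

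Among relatives of Emilin2, Emilin1 had 81.6 ± 9.10 CPM in F1-P and 120 ± 5.20 in F1-L (SD, n = 3) without overlap, a limma log2 difference of 0.55 (SE 0.11, adjusted p = 0.172). Mmrn1, the multimerin gene of platelets and endothelium, had 35.3 ± 7.97 and 78.6 ± 48.4 CPM, with a limma log2 difference of 0.99 (SE 0.40, adjusted p = 0.369). Neither passed both thresholds in limma, the edgeR tests or DESeq2. The 5 genes most like Emilin2 over the 12 LSK samples, by Pearson correlation of log2(CPM + 1) among 14348 genes, were Arrdc4 (r = 0.948), App (0.938), Glt1d1 (0.934), Pld1 (0.919) and Gm13431 (0.914). App, the amyloid precursor gene, had 16.0, 18.8 and 36.4 CPM in F1-P and 81.5, 60.6 and 60.4 in F1-L. These samples share libraries and groups, and no p is given.

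The collagen chains of LSK, which include the collagen members, were counted in the same way. Between F1-L and F1-P, 4 of 35 chains were higher and none lower by the likelihood ratio test, against 3.09% and 1.18% of genes, and none of 18 passed in limma, where 3 had an unadjusted p under 0.05. The 4, named after their values were seen, were Col4a5, Col14a1, Col16a1 and Col18a1, none of them a fibrillar chain. Without F1-P replicate 2 none of the 4 was left. Between B6-O and B6-Y, 1 of 31 was higher and 1 lower, against 0.412% and 0.34%. These were, named after their values were seen, Col16a1, at 59.5 ± 6.70 CPM in B6-O and 27.0 ± 9.004 in B6-Y, and Col27a1, at 1.76 ± 0.421 and 7.19 ± 3.03 (SD, n = 3). Both calls were lost without any 1 of 4 libraries (B6-Y replicate 1 or 2, B6-O replicate 1 or 2).

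Against C57BL/6, limma called 4 chains higher and 2 lower of 17 in F1-L against B6-O, and 2 higher and 3 lower of 15 in F1-P against B6-Y, where 7.84% and 3.75%, and 10% and 6.18%, of all genes were. The basement membrane chains Col4a1 and Col4a2 were lower in NZB/W F1 at both ages. Col4a1 was 10.7 ± 2.95 CPM in F1-P against 37.4 ± 6.25 in B6-Y, a log2 difference of -1.73 (SE 0.22, limma adjusted p = 0.00173), and 14.3 ± 6.30 in F1-L against 45.4 ± 14.3 in B6-O. The transmembrane chain Col17a1 went the other way, at 4.89 ± 2.53 CPM in F1-P against 0.710 ± 0.406 in B6-Y and 8.31 ± 5.40 in F1-L against 0.399 ± 0.256 in B6-O (SD, n = 3). By limma its log2 difference was 1.72 (SE 0.34, adjusted p = 0.0116) and 2.599 (SE 0.40, adjusted p = 0.00704). Col20a1 was likewise higher in both.

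Genes that build and modify collagen were compared with C57BL/6 as well. By limma 10% of all genes were higher and 6.18% lower in F1-P against B6-Y, and 7.84% were higher and 3.75% lower in F1-L against B6-O. Of the synthesis and cross-linking list, 8 were higher and 1 lower of 23 in F1-P against B6-Y, and 6 were higher and 1 lower of 25 in F1-L against B6-O by limma. The procollagen N-proteinase Adamts14 was 32.6 ± 3.53 CPM in F1-P against 2.08 ± 1.02 in B6-Y (SD, n = 3), a log2 difference of 3.49 (SE 0.25, limma adjusted p = 0.000115). The prolyl hydroxylase subunit P4ha2 and the transcription factor Creb3l1 were higher in both contrasts, by log2 differences of 1.503 (SE 0.25) and 1.54 (SE 0.23) in F1-P against B6-Y. Of the matrix glycoproteins, 10 of 25 were higher and 3 lower in F1-P against B6-Y, and 9 of 28 were higher and 1 lower in F1-L against B6-O. Postn, a periosteal matrix protein that is also on the osteoblast list, was 17.6 ± 3.41 CPM in F1-P against 2.44 ± 0.299 in B6-Y, a log2 difference of 2.42 (SE 0.20, limma adjusted p = 0.000233). Plasma cell markers differed along with these lists, with 11 of 11 higher in F1-P than B6-Y and 9 of 11 higher in F1-L than B6-O by limma. Their part in the matrix genes was not tested.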

How the data were processed

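RNA from sorted LSK (12 samples) and CMPs (6 samples) was sequenced by the authors with an unstranded kit as single-end reads of 75 bases, aligned with STAR 2.6 to mm10 (GRCm38), counted with HTSeq and scaled with edgeR. The deposited values were a signal, CPM of a scaled library size, with LSK and CMPs in separate tables that were not tested against each other. Reads were recovered by dividing each value by the worth of 1 read, and every value came out whole within 0.01 read.

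The members and the gene lists were chosen with earlier results of these data known. Samples were grouped by their labels. The main test was limma 3.58.1 in R 4.3.3 on log2(CPM + 1) with a mean trend, over genes that reached CPM 1 in 3 or more of the samples compared, with Benjamini-Hochberg adjustment over all genes tested. Fold changes on this scale understate the change of low genes. A gene passed with a fold change beyond 1.5 and an adjusted p no higher than 0.05. The recovered reads were tested with the edgeR 4.0.16 quasi-likelihood and likelihood ratio tests and with DESeq2 1.42.0, keeping the deposited scaling, and the likelihood ratio test was also run on genes with at least 10 reads in the comparison. Ratios of summed reads and shares of reads have exact 95% binomial intervals. The fits were tested on simulated data.

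Besides the members, genes were named by rule: for each list, up to 4 genes past the limma thresholds by adjusted p, or else up to 4 with the highest mean CPM, and the 5 genes most correlated with Col1a1 or Emilin2. Alternatives were other pseudocounts and filters, a replicate block, and each library left out. The collagen chain counts with a library left out were added after seeing the data.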

Additional observations from a re-analysis of the deposited data

How the results depend on the processing

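Members past the thresholds numbered 1 in CMPs (Col1a1) and 1 in LSK F1-L against F1-P (Emilin2), 1 in F1-L against B6-O, 0 in F1-P against B6-Y and 0 in B6-O against B6-Y. In CMPs the count was 0 with a mean CPM of at least 5, where Col1a1 was not tested, and 2 by the likelihood ratio test, with or without the filter of 10 reads, and by DESeq2. In LSK F1-L against F1-P it was 0 with a pseudocount of 0.1 or 0.5 and by the quasi-likelihood test. In F1-L against B6-O it was 2 by both likelihood ratio settings and DESeq2, and in F1-P against B6-Y it was 1 by the likelihood ratio test and 2 with the filter of 10 reads and by DESeq2. The cause of these changes was not tested. With each library left out, the counts ran from 0 to 1 in CMPs, 0 to 1 in LSK F1-L against F1-P, 1 to 1 in F1-L against B6-O, 0 to 2 in F1-P against B6-Y and 0 to 0 in B6-O against B6-Y. The call of Col1a1 in CMPs was lost without any library but F1-P replicate 1, and that of Emilin2 in LSK F1-L against F1-P without any but F1-P replicate 1 or 3. Collagen chains called by the likelihood ratio test on genes with 10 reads ran from 3 to 14 in CMPs (7 with all libraries), 0 to 4 (4), 0 to 2 in B6-O against B6-Y (2), 9 to 14 in F1-L against B6-O (13) and 9 to 18 in F1-P against B6-Y (14), an alternative chosen after seeing the data. Of 329 log2 differences of members under the alternatives, 302 kept their side of the thresholds and none that was called reversed. Over all genes, limma called 1 in CMPs against 318 by the likelihood ratio test, 4 against 659 in LSK F1-L against F1-P, and 0 against 115 in B6-O against B6-Y. The correlations of the deviations of same-numbered samples ran from -0.454 to 0.622 in CMPs, -0.0426 to 0.0256 in LSK F1-L against F1-P, -0.356 to 0.472 in B6-O against B6-Y, 0.00292 to 0.0606 in F1-L against B6-O and 0.0676 to 0.326 in F1-P against B6-Y. In no comparison were all 3 above 0.1, so the numbers were not taken as pairs. With the replicate block the members past the thresholds numbered 0 in CMPs, 0 in LSK F1-L against F1-P, 1 in F1-L against B6-O, 0 in F1-P against B6-Y and 0 in B6-O against B6-Y.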
